A study of Mus musculus with 7 samples.

Results

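The 46 genes described here are interferon-stimulated genes, the genes that cells switch on when they sense interferon, together with the receptor chains and transcription factors through which the signal passes. They were chosen by name, as 46 of the 56980 mouse genes in the deposited table, and all 46 were found in it. Myocardial RNA was sequenced from 7 wild-type male mice of the inbred strain C57BL/6J, which were 8 weeks old when obtained. In the 3 MI mice the left coronary artery had been ligated to produce a myocardial infarction, and the 4 sham-operated mice went through the surgery without ligation; tissue was collected 4 days after the infarction. Each mouse gave 1 library, and the study speaks of the tissue of the MI mice as ischemic myocardium, while the share of it that was infarcted is not given in the sources used here. The values are FPKM, the fragments counted on a gene relative to its length and to the fragments of the library, so levels may be compared between genes of a heart. The FPKM of all genes summed to 378221 and 386335 in MI replicates 1 and 3 and to 463838 to 476593 in the other 5 hearts, so the scale was not the same in all hearts, and values under other scalings are given with the results.

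Interferons are secreted proteins made when cells detect viral or misplaced nucleic acid. Type I interferons bind a receptor of the chains IFNAR1 and IFNAR2, and the signal reaches STAT2 and IRF9, which act at a DNA element called the interferon-stimulated response element (ISRE) in front of target genes. Interferon gamma, made by lymphocytes, acts through another element, the gamma-activated site (GAS). The induced proteins degrade or bind foreign RNA, modify other proteins, block membrane fusion or prepare peptides for presentation to T cells, and many of them are present at low levels without any stimulus. In an infarct they can be made by resident cells and by the leukocytes that enter the dying tissue.

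Letters matching these elements were looked for around the start sites of the members. Windows of 300 bases, 250 before and 50 after each start site, were read from RefSeq for GRCm38 and held for 37 of the 46 members. The ISRE, searched on both strands as GAAA, any 2 bases and GAAA again, was present in 17 of the 37 members (45.9%) and in 3.99% of the 27025 genes with a window. The GAS, searched on both strands as TTC, any 3 bases and GAA, was present in 12 members (32.4%) and in 9.55% of all genes. A stretch that matched both searches counted for both; 5 members held both elements and 13 held neither. The stretches that follow lie within the 250 bases upstream of the start site, run 5′ to 3′ on the strand of the gene, and are shown to let the matches of members with different roles be compared; capitals mark ISRE matches.
Isg15, chr4:156200845-156200914, minus strand: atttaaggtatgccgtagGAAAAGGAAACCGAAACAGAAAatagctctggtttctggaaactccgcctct
Ifit1, chr19:34640774-34640843, plus strand: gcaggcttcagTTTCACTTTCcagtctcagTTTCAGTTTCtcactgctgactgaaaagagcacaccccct
Ifit3, chr19:34583377-34583446, plus strand: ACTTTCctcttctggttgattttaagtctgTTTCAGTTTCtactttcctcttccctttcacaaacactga
Oas1a, chr5:120907526-120907569, minus strand: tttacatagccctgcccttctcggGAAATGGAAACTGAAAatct
Oas3, chr5:120777695-120777764, minus strand: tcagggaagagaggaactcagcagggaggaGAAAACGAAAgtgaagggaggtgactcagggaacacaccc
Bst2, chr8:71537557-71537626, minus strand: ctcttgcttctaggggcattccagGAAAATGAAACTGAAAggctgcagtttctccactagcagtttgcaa
Gbp2, chr3:142620574-142620643, plus strand: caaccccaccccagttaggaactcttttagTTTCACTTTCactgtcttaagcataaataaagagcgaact
Igtp, chr11:58199492-58199555, plus strand: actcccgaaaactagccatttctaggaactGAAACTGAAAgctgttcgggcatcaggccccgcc
In the windows of the transcription factors Irf1 and Irf8 the ISRE search found nothing and the GAS search, in capitals here, did.
Irf1, chr11:53769894-53769962, plus strand: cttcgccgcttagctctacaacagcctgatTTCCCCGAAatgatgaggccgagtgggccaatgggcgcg
Irf8, chr8:120736175-120736243, plus strand: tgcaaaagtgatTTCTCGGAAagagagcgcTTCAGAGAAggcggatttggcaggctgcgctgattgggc
A match is a string of letters and not evidence of binding. The Isg15 stretch held 3 overlapping ISRE matches, and the Oas1a and Bst2 stretches 2 each; the capitals at the start of the Ifit3 stretch are the end of a further match. The median fold of the sham mean in MI replicate 1 was 2.79 for the members with an ISRE match and 2.79 for those without, and in MI replicate 3 it was 2.43 and 2.12.

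Library depth ran from 19977713 to 23610863 fragments. MI replicate 2 stood apart from the other MI hearts: across genes its log2 values correlated with those of the sham hearts at a Pearson r of 0.984 to 0.987, near the 0.989 to 0.992 among sham hearts. The same coefficient was 0.878 to 0.881 for MI replicate 1, and replicate 3 had 0.903 to 0.906. The labels place it in the MI group and it was kept there, so it enters every MI mean and fold change. In it 7 of 8 fibroblast markers were above every sham heart, with Postn, a matrix protein of activated fibroblasts, at 2.99-fold and the collagen gene Col1a1 at 2.08-fold of the sham mean. Why it stood nearer to the sham hearts than the other MI hearts did was not tested. The results over the lists are given with and without it. Of the 11431 genes that passed a filter of at least 1 FPKM in at least 3 hearts, 3 (0.0262%) reached an adjusted p under 0.05 in limma's moderated test of log2(FPKM + 1) with Benjamini-Hochberg adjustment, and 4496 (39.3%) had an unadjusted p under 0.05. The replicates are separate mice.

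All 46 members were above the highest sham heart in MI replicate 1 and in MI replicate 3, by a median of 2.80-fold and 2.34-fold of the sham mean. In MI replicate 2 the median was 1.02-fold, and 12 members were above the sham hearts, 31 within their range and 3 (Irf5, Bst2 and Isg15) below it. Among all genes tested, 68.0% were above every sham heart in MI replicate 1, 20.4% in MI replicate 2 (30.2% were below every sham heart there) and 65.9% in MI replicate 3, so a value above the sham hearts was common in replicates 1 and 3. The sizes of the differences were larger in the members: on the log2(FPKM + 1) scale the median difference from the sham mean in MI replicate 1 was 1.13 for the 46 members and 0.36 for all genes tested, and in MI replicate 3 it was 0.83 and 0.30. In MI replicate 2 the medians were 0.02 and -0.02.

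**Figure D1:**
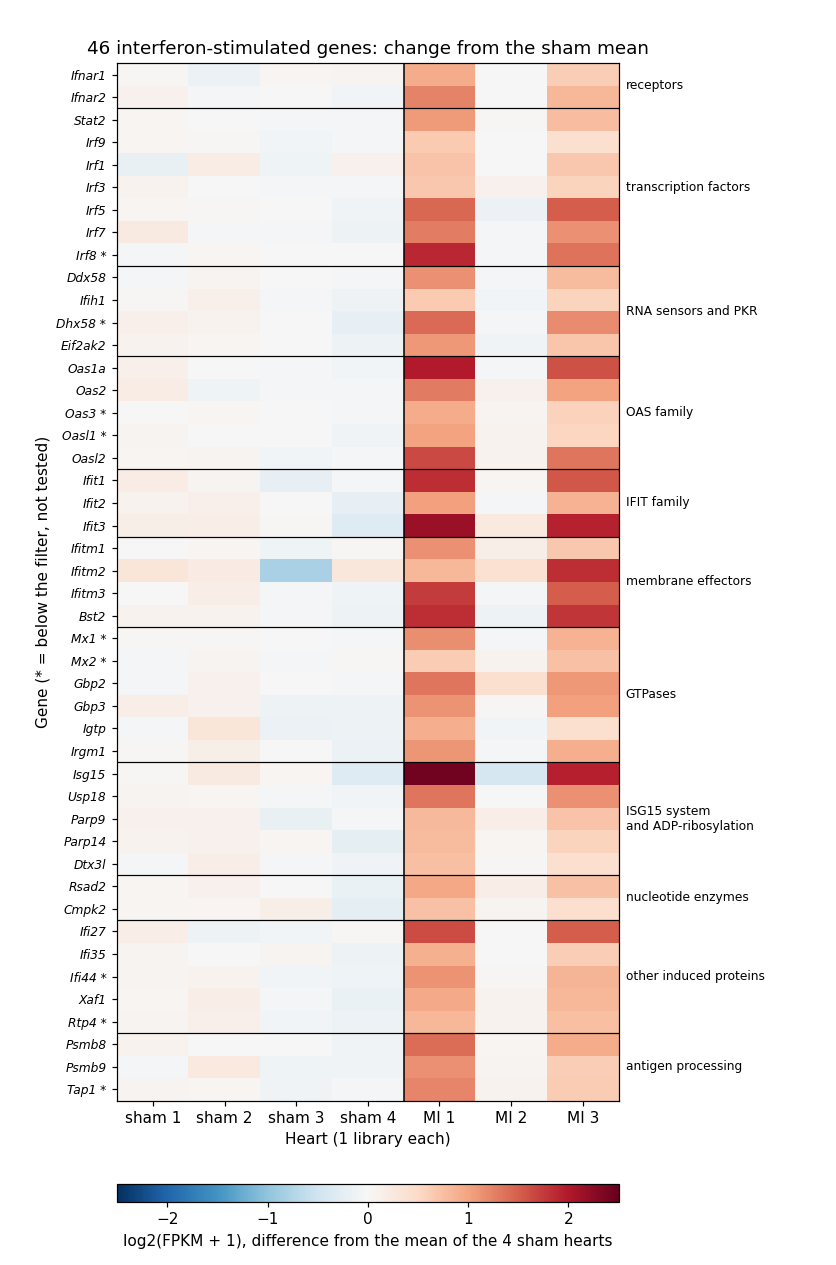
Difference of log2(FPKM + 1) from the mean of the 4 sham hearts, for each of the 46 members (rows, grouped by role) in each of the 7 hearts (columns); red is higher and blue lower, and an asterisk marks the 9 members below the filter. MI replicates 1 and 3 are red in every row, while MI replicate 2 has the pale colours of the sham hearts.

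No member reached an adjusted p under 0.05. The 37 members that passed the filter all had a positive log2 fold change of MI over sham, from 0.35 to 1.44 with a median of 0.65, where the median of all genes tested was 0.21. Their standard errors ran from 0.14 to 0.62 and their adjusted p-values from 0.108 to 0.198 (limma). An unadjusted p under 0.05 was found for 31 of the 37. A second, descriptive criterion was set by 2 lines, an unadjusted p of 0.05 and a log2 fold change of 0.5. Past both lines lay 27 of the 37 members, all higher in MI, against 17.8% of all genes tested higher and 4.80% lower. Of the 37, Irf7 and Psmb9 reached 1 FPKM in only 1 sham heart each and so passed the filter with the help of MI replicates 1 and 3. The other 35 reached it in at least 3 sham hearts, and 25 of these 35 were past both lines and 29 had an unadjusted p under 0.05, against 16.9% and 38.8% of the 10653 genes tested that reached 1 FPKM in at least 3 sham hearts.

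The count of 27 rested on single hearts. It was 2 without MI replicate 1 (5.11% of all genes then tested), 4 without MI replicate 3 (5.12%) and 37 without MI replicate 2 (34.7%). Without sham replicates 1, 2, 3 and 4 it was 15 (12.9%), 14 (12.8%), 8 (12.5%) and 9 (12.1%). Without MI replicate 2 all 37 members reached an adjusted p under 0.05, with a median log2 fold change of 0.98, but so did 56.8% of the 11264 genes tested in the higher direction. Irf7 and Psmb9 are in both counts of 37, though they passed the filter only with the help of MI replicates 1 and 3. The other 35 reached 1 FPKM in at least 3 sham hearts. The scaling also mattered. Rescaling moved the median of all genes from 0.21 to 0.42 (TPM), 0.05 (median log-ratio) or -0.03 (quantile normalization), and the median of the members moved with it, to 0.94, 0.49 and 0.38. The members stayed positive and above the median of all genes under each of these, with 34, 15 and 11 of them past both lines against 32.7%, 10.9% and 8.81% of all genes tested.

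**Figure D2:**
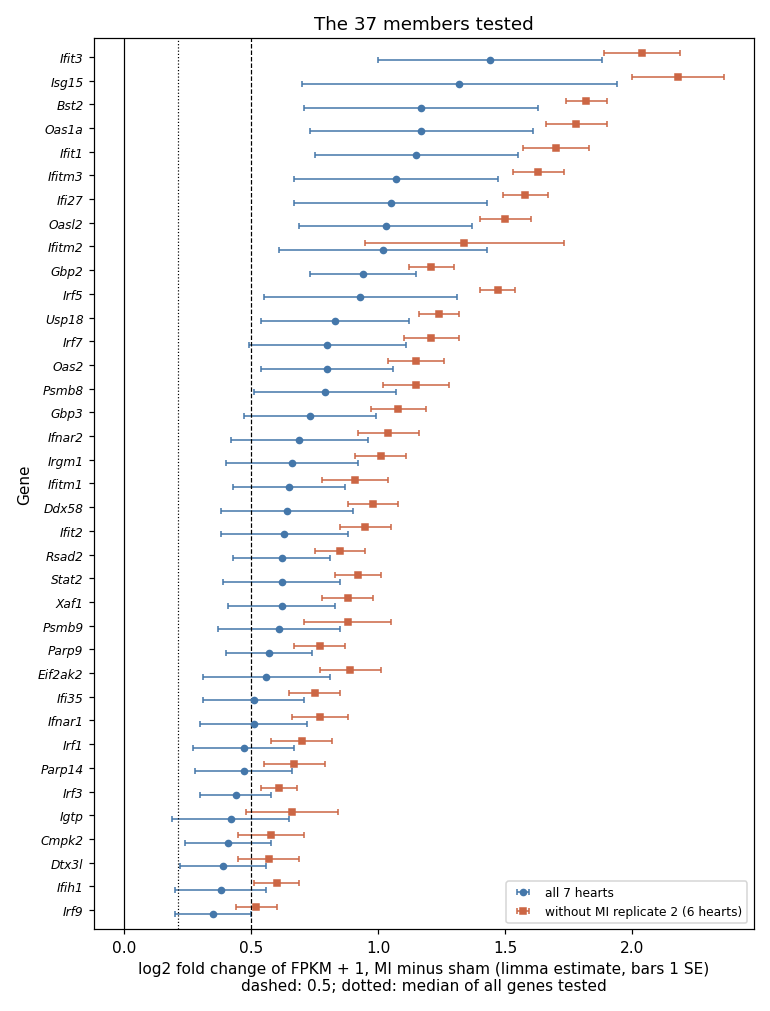
Log2 fold change of FPKM + 1, MI minus sham, from limma for the 37 members tested, with bars of 1 SE, over all 7 hearts (circles) and without MI replicate 2 (squares). Every estimate lies above 0, and leaving out MI replicate 2 moves each one up and shortens its bar.

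The groups of hearts overlapped for most members. Every MI heart was above every sham heart for 12 of the 46 members: Irf3, Oas3, Oasl1, Oasl2, Ifit3, Ifitm1, Ifitm2, Mx2, Gbp2, Parp9, Rsad2 and Tap1. For the other 34 members MI replicate 2 fell within or below the sham range. Of the 37 members tested 8 did not overlap, and of all genes tested 16.1% were higher in MI without overlap. MI replicate 1 was above MI replicate 3 for 43 of 46 members, all but Irf5, Ifitm2 and Mx2, with a median ratio of 1.24 against 1.04 for all genes tested, where 60.9% were higher in replicate 1.

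**Figure D3:**
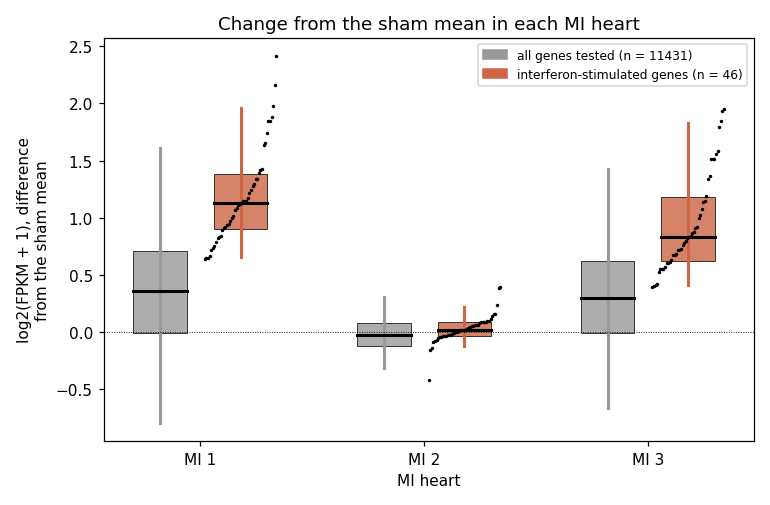
Difference of log2(FPKM + 1) from the sham mean in each MI heart, for all genes tested (grey) and for the 46 members (orange, with 1 point per member); boxes span the 25th to 75th percentiles, black bars are medians and lines reach the 5th and 95th percentiles. The members lie above most genes in MI replicates 1 and 3 and around 0 in MI replicate 2.

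In the sham hearts most members were expressed at low levels. Their median sham mean was 2.22 FPKM over all 46 and 2.44 FPKM over the 37 that passed the filter, below the 3.71 FPKM of all genes that passed it; 11 members were under 1 FPKM. Only Ifitm3, Ifitm2 and Bst2 exceeded 10 FPKM, and these 3 membrane proteins made up 61.5% of the summed FPKM of the members. That sum was 275, 281, 224 and 250 FPKM in sham replicates 1 to 4 and 755, 272 and 755 in MI replicates 1 to 3. Sham hearts were close to each other, with a median coefficient of variation of 11.7% per member, against 46.1% over the MI hearts. Between 4 and 3995 fragments lay behind each value, with the fewest for Oas3, and an FPKM of few fragments carries a counting error of its own.

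The 2 chains of the type I interferon receptor were both past the lines. Ifnar2, the chain that binds the ligand most tightly, was 3.78, 3.33, 3.39 and 3.23 FPKM in sham replicates 1 to 4 and 9.48, 3.42 and 6.88 FPKM in MI replicates 1 to 3. Its log2 fold change was 0.69 (SE 0.27, adjusted p = 0.114). Ifnar1, its partner, was 2.46, 2.06, 2.52 and 2.55 FPKM in sham and 5.43, 2.39 and 4.17 FPKM in MI hearts, a log2 fold change of 0.51 (SE 0.21, adjusted p = 0.118). For both chains MI replicate 2 lay inside the sham range and the other MI hearts above it.

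Among the 7 transcription factors Irf8, Irf5 and Irf7 had the largest folds in MI replicates 1 and 3. Irf8, which myeloid and B cells depend on, was 0.694, 0.795, 0.759 and 0.728 FPKM in sham hearts. In MI replicates 1 to 3 it was 5.43, 0.712 and 3.49 FPKM, which is 7.29-fold, 0.957-fold and 4.69-fold of the sham mean. It did not pass the filter and was not tested. Irf5, which acts downstream of Toll-like receptors in macrophages, was 1.49, 1.48, 1.45 and 1.28 FPKM in sham and 5.52, 1.18 and 5.93 FPKM in MI hearts, so that MI replicate 2 was the lowest heart of all. Irf7, the factor that amplifies interferon production, was 1.22, 0.851, 0.853 and 0.748 FPKM in sham and 3.63, 0.863 and 3.24 FPKM in MI hearts. Both had unadjusted p-values under 0.05, with log2 fold changes of 0.93 (SE 0.38, adjusted p = 0.121) and 0.80 (SE 0.31, adjusted p = 0.114).

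Stat2 and Irf9, which act together at the ISRE, had smaller log2 fold changes. Stat2 was 2.25, 2.17, 2.08 and 2.07 FPKM in sham and 5.58, 2.19 and 4.39 FPKM in MI hearts, a log2 fold change of 0.62 (SE 0.23, adjusted p = 0.111). Irf9 had the smallest log2 fold change of the 37 members, 0.35 (SE 0.15, adjusted p = 0.13), from 2.17 ± 0.115 FPKM in sham (SD, n = 4) to 3.10 ± 0.896 in MI hearts (SD, n = 3). Irf3, which starts the first wave of interferon transcription, was one of the members without overlap. It was 2.79, 2.57, 2.49 and 2.48 FPKM in sham and 4.70, 2.84 and 4.26 FPKM in MI hearts, so that MI replicate 2 exceeded the highest sham heart by a small margin. Irf1, a factor driven by interferon gamma, was 1.86 to 2.72 FPKM in sham and 4.37, 2.28 and 4.22 FPKM in MI hearts.

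The cytoplasmic RNA sensors are themselves interferon-induced. Ddx58 (RIG-I), which recognises RNA ends, was 1.56, 1.72, 1.62 and 1.53 FPKM in sham and 4.79, 1.54 and 3.53 FPKM in MI hearts, and was the only one of the 3 members tested in this group past both lines (log2 fold change 0.64, SE 0.26, adjusted p = 0.117). Ifih1 (MDA5), the sensor of long double-stranded RNA, was 0.916 to 1.27 FPKM in sham and 2.27, 0.985 and 2.06 FPKM in MI hearts. Eif2ak2 (PKR), a kinase that halts translation when it binds such RNA, was 2.36 to 2.90 FPKM in sham and 6.79, 2.46 and 4.90 FPKM in MI hearts. Their unadjusted p-values were 0.0693 and 0.0602. Dhx58 (LGP2), the regulatory member of the family, was too low to be tested, at 0.366 to 0.713 FPKM in sham and 3.22, 0.525 and 2.60 FPKM in MI hearts.

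The oligoadenylate synthetases make the messenger that activates RNase L, and the 3 members of the family that were tested had a median log2 fold change of 1.03. Oas1a was 2.44, 2.15, 2.03 and 2.02 FPKM in sham and 11.4, 2.06 and 8.47 FPKM in MI hearts (log2 fold change 1.17, SE 0.44, adjusted p = 0.111). Oas2 was 1.82 to 2.44 FPKM in sham and 6.43, 2.28 and 5.07 FPKM in MI hearts, and Oasl2 was 1.05 to 1.25 FPKM in sham and 5.77, 1.29 and 4.46 FPKM in MI hearts. In Oasl2 even MI replicate 2 was above the sham hearts, by less than the distance between the lowest and the highest of them. Oas3 had the largest fold of any member, 21.8-fold, 2.06-fold and 12-fold of the sham mean in MI replicates 1 to 3. Those folds rest on 4 to 14 fragments in each sham heart and 18 to 183 in each MI heart, at 0.0239 to 0.0769 FPKM and 1.00, 0.0948 and 0.550 FPKM. Oasl1 was also below the filter, at 0.259 to 0.398 FPKM in sham and 1.66, 0.418 and 0.923 FPKM in MI hearts. Reads of Oas1a and its close copy Oas1g, and those of other near-identical family members, may have been shared between genes in the counting, so values of single members of these families are uncertain.

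The IFIT proteins, which bind viral RNA and block its translation, are encoded in a cluster on chromosome 19. The largest log2 fold change among the 37 members was that of Ifit3, 1.44 (SE 0.44, adjusted p = 0.108). It was 7.18, 7.24, 6.52 and 4.88 FPKM in sham and 32.0, 7.72 and 27.2 FPKM in MI hearts, without overlap. Ifit1, which lies 52139 bases from Ifit3, was 2.95, 2.64, 1.99 and 2.32 FPKM in sham and 11.4, 2.59 and 9.19 FPKM in MI hearts (log2 fold change 1.15, SE 0.40, adjusted p = 0.109). Ifit2, which lies 7111 bases from Ifit3 and on the same strand, was higher by less in the same hearts, at 3.44 to 4.63 FPKM in sham and 9.39, 4.05 and 8.42 FPKM in MI hearts (log2 fold change 0.63, SE 0.25, adjusted p = 0.116). These 3 members shared the order of the MI hearts and differed in size. Between Ifit3 and Ifit1 lie Ifit1bl1, Ifit3b and Ifit1bl2, which are not members. Ifit3b, a close copy of Ifit3 that may share fragments with it, was 1.28 to 2.5 FPKM in sham and 6.86, 2.41 and 6.48 FPKM in MI hearts, while Ifit1bl1 was 1.24 to 1.62 FPKM in sham and 1.52, 1.15 and 1.24 FPKM in MI hearts (log2 fold change -0.05, SE 0.10) and Ifit1bl2 was below the filter. Neither window of Ifit2 held an ISRE match, while those of Ifit1 and Ifit3 did. Whether this bears on the sizes was not tested.

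Of the 4 membrane effectors, Ifitm3, Ifitm2 and Bst2 were the members with the highest levels, and Ifitm1 had a sham mean of 2.00 FPKM. Ifitm3, which hinders the fusion of virus with the endosome, was 80.4, 89.6, 77.5 and 74.4 FPKM in sham and 271, 78.0 and 231 FPKM in MI hearts (log2 fold change 1.07, SE 0.40, adjusted p = 0.112). Bst2 (tetherin), which holds budding virus on the cell surface, was 20.1, 20.2, 18.3 and 17.1 FPKM in sham and 70.7, 17.1 and 67.9 FPKM in MI hearts. Both were high in MI replicates 1 and 3 and at the level of sham hearts in replicate 2.

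Ifitm2 behaved otherwise. It was 69.8, 65.4, 31.6 and 69.1 FPKM in sham replicates 1 to 4 and 101, 73.8 and 205 FPKM in MI replicates 1 to 3. MI replicate 3 was the highest here, with an MI replicate 1 to replicate 3 ratio of 0.494, the lowest of all members, and sham replicate 3 was far below the other sham hearts. Its log2 fold change of 1.02 (SE 0.41, adjusted p = 0.117) was 0.75 without sham replicate 3 and 0.61 without MI replicate 3. Ifitm2 shares 268 exon bases with Gm45717 on the same strand, and whether fragments were divided between them is not given in the sources used here. Ifitm1, on the other strand of the same cluster, was 1.8 to 2.12 FPKM in sham and 5.63, 2.30 and 3.80 FPKM in MI hearts, the usual order of replicates.

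**Figure D4:**
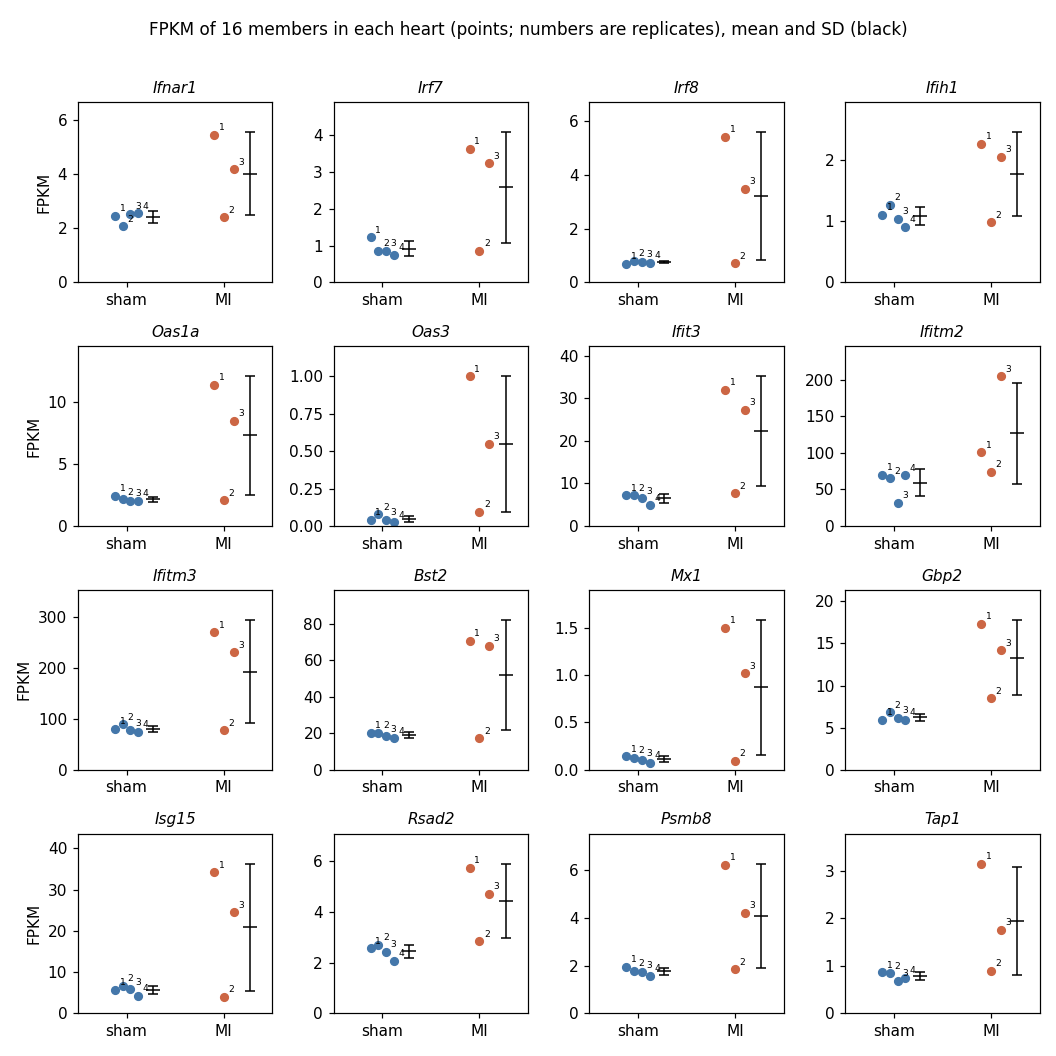
FPKM of 16 members in each heart, with sham in blue and MI in orange, the replicate number beside each point, and the mean with its SD in black. MI replicates 1 and 3 stand above the sham hearts in each panel and MI replicate 2 lies at or near them; in Ifitm2 the order of MI replicates 1 and 3 is turned and sham replicate 3 is low.

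The interferon-induced GTPases include the Mx proteins, which trap viral nucleocapsids, and the guanylate-binding proteins and immunity-related GTPases, which act on the membranes around intracellular microbes. Gbp2 had the lowest p-value of the 37 members, an unadjusted 0.00284 (adjusted p = 0.108), with a log2 fold change of 0.94 (SE 0.21). It was 5.94, 6.81, 6.20 and 5.93 FPKM in sham and 17.3, 8.46 and 14.2 FPKM in MI hearts. At 1.36-fold of the sham mean it stood clearly above the sham hearts in MI replicate 2 as well. Gbp3, 47392 bases away, was 2.21 to 2.96 FPKM in sham and 6.73, 2.62 and 6.17 FPKM in MI hearts, with replicate 2 inside the sham range.

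Mx1 and Mx2 were below 1 FPKM in every sham heart. Mx1, which C57BL/6 mice are known to carry in a deleted, inactive form, was 0.140, 0.129, 0.0984 and 0.0743 FPKM in sham (9 to 19 fragments) and 1.5, 0.0948 and 1.02 FPKM in MI hearts, or 13.6-fold, 0.858-fold and 9.24-fold of the sham mean. Mx2 was 0.455 to 0.583 FPKM in sham and 1.35, 0.612 and 1.49 FPKM in MI hearts. The immunity-related GTPases differed from each other: Irgm1 was 1.98 to 2.63 FPKM in sham and 6.11, 2.21 and 5.21 FPKM in MI hearts. Igtp was 2.28 to 3.48 FPKM in sham and 5.81, 2.44 and 3.81 FPKM in MI hearts, and had the largest adjusted p of the members, 0.198 (log2 fold change 0.42, SE 0.23).

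Isg15 encodes a ubiquitin-like protein that is attached to other proteins, and its estimate had the largest standard error of the 37 members. It was 5.77, 6.76, 5.88 and 4.27 FPKM in sham and 34.2, 3.96 and 24.5 FPKM in MI hearts, so that MI replicates 1 and 3 were at 6.02-fold and 4.33-fold of the sham mean and MI replicate 2, at 0.698-fold, was below every sham heart. Its log2 fold change was 1.32 (SE 0.62, adjusted p = 0.146). Without MI replicate 2 it was 2.18 (SE 0.18), the largest of the members in that fit. Usp18, the protease that removes ISG15 and dampens the receptor, was 1.06 to 1.28 FPKM in sham and 4.46, 1.19 and 3.75 FPKM in MI hearts (log2 fold change 0.83, SE 0.29, adjusted p = 0.109).

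The ADP-ribosyltransferases and their partner differed less. Parp9 was 3.41, 3.37, 2.59 and 3.02 FPKM in sham and 6.21, 3.57 and 5.73 FPKM in MI hearts, without overlap (log2 fold change 0.57, SE 0.17, adjusted p = 0.108). Dtx3l, the ubiquitin ligase that works with PARP9, starts 681 bases away on the other strand and was 3.05 to 3.78 FPKM in sham and 6.23, 3.35 and 4.62 FPKM in MI hearts (log2 fold change 0.39, SE 0.17, adjusted p = 0.133). The genes share 458 exon bases on opposite strands, and without a stated strand setting fragments there cannot be told apart. Parp14 was 2.48 to 3.47 FPKM in sham and 6.15, 3.29 and 5.06 FPKM in MI hearts.

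Rsad2 (viperin), which makes a chain terminator of viral RNA from CTP, and Cmpk2, a mitochondrial nucleotide kinase, lie head to head on chromosome 12, with start sites 12752 bases apart. Rsad2 was 2.57, 2.70, 2.42 and 2.08 FPKM in sham and 5.74, 2.83 and 4.70 FPKM in MI hearts, without overlap (log2 fold change 0.62, SE 0.19, adjusted p = 0.108). Cmpk2 was 1.77 to 2.61 FPKM in sham and 4.45, 2.43 and 3.39 FPKM in MI hearts (log2 fold change 0.41, SE 0.17, adjusted p = 0.126). The pair had the lowest median log2 fold change of the groups by role, 0.51.

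Of the 5 other induced proteins Ifi27, a small mitochondrial membrane protein, was the most abundant, and its log2 fold change exceeded those of Ifi35 and Xaf1, the others tested, at 7.90, 6.29, 6.55 and 7.11 FPKM in sham and 23.7, 6.84 and 21.7 FPKM in MI hearts (log2 fold change 1.05, SE 0.38, adjusted p = 0.11). Ifi35 was 5.08 to 5.99 FPKM in sham and 11.3, 5.71 and 9.16 FPKM in MI hearts. Xaf1, a proapoptotic antagonist of XIAP, was 1.44 to 2.06 FPKM in sham and 4.26, 1.89 and 3.83 FPKM in MI hearts. Ifi44 and Rtp4 stayed below the filter, with 4.21-fold and 2.77-fold of the sham mean in MI replicate 1, 1.04-fold and 1.13-fold in replicate 2, and 3.15-fold and 2.56-fold in replicate 3.

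The antigen processing members supply peptides to MHC class I. Psmb8, a catalytic subunit of the immunoproteasome, was 1.94, 1.79, 1.72 and 1.58 FPKM in sham and 6.21, 1.85 and 4.21 FPKM in MI hearts (log2 fold change 0.79, SE 0.28, adjusted p = 0.11). Psmb9, another such subunit, was 0.585 to 1.04 FPKM in sham and 2.81, 0.790 and 1.62 FPKM in MI hearts. Tap1, a chain of the peptide pump of the endoplasmic reticulum, was 0.686 to 0.862 FPKM in sham and 3.15, 0.899 and 1.76 FPKM in MI hearts. These 3 neighbours on chromosome 17 had MI replicate 1 to replicate 3 ratios of 1.47, 1.73 and 1.78, above the members' median of 1.24. Psmb9 and Tap1 start 211 bases apart on opposite strands and share 212 exon bases, so part of their fragments cannot be told apart.

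The 9 members below the filter were Irf8, Dhx58, Oas3, Oasl1, Mx1, Mx2, Ifi44, Rtp4 and Tap1. In a fit of all genes without the filter all 46 members had a value, none reached an adjusted p under 0.05 (limma; 0.0688% of all genes did), 37 had an unadjusted p under 0.05 against 25.3% of all genes in that fit, and the median log2 fold change was again 0.65. On the log2(FPKM + 1) scale changes of genes this low are understated, and in that fit the log2 fold change of Oas3 was 0.52 and that of Mx1 0.67.

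The interferons themselves were close to undetectable in these libraries. Of 20 genes for interferons of types I to III and interferon gamma, 16 had no fragment in any heart and none passed the filter. Ifnb1, interferon beta, had 0 fragments in all 7 hearts, and a count of 0 allows up to 3 fragments per library. Ifng had 1 fragment, in MI replicate 1, and 0 in the other 6 hearts.

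A further 121 genes of the interferon pathway were listed, from ligands and receptors to other induced genes. Of these 69 were tested, none reached an adjusted p under 0.05 (limma), and 41 had an unadjusted p under 0.05, against 39.3% of all genes tested. Past both lines lay 30 in the higher direction, against 17.8% of all genes tested, and 0 in the lower, against 4.80%. Of the 69, Tlr3, Trim21, Phf11b and Oas1b reached 1 FPKM in fewer than 3 sham hearts and passed the filter through MI hearts. Over the other 65 the counts were 39 and 29, against 38.8% and 16.9% of the 10653 genes tested that reached 1 FPKM in at least 3 sham hearts. The count of 30 was 8 of 67 without MI replicate 1 (5.11% of all genes then tested), 11 of 67 without MI replicate 3 (5.12%) and 49 of 69 without MI replicate 2 (34.7%). Without 1 of the sham hearts it was 18 to 26 of 68 or 69, lowest without sham replicate 4, against 12.1% to 12.9% of all genes. The median log2 fold change of the 69 was 0.51, and 0.73 without MI replicate 2. The groups among them differed: it was 0.69 for the 28 other induced genes tested and 1.05 without MI replicate 2, beside 0.65 and 0.98 for the members, and 0.27 for the 9 genes of nucleic acid sensing tested, or 0.46 without MI replicate 2. The genes with the largest differences and no overlap were Ifi30, a lysosomal thiol reductase of antigen processing (log2 fold change 1.91, SE 0.58), Socs3, a feedback inhibitor of JAK kinases (1.90, SE 0.62), Ifi204 (1.53, SE 0.40), Slfn2, which limits proliferation of leukocytes (1.5, SE 0.44), Ifi205 (1.2, SE 0.16) and H2-D1, an MHC class I heavy chain (1.18, SE 0.38).

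Ifi205, a nuclear DNA-binding protein of the p200 family, had the lowest adjusted p of these 6, at 0.0864. It was 2.81, 2.90, 3.05 and 4.11 FPKM in sham and 10.4, 7.05 and 8.62 FPKM in MI hearts, so that MI replicate 2 was well above the sham hearts, unlike in most members. Socs3 was 1.1 to 1.21 FPKM in sham and 21.7, 1.65 and 7.81 FPKM in MI hearts. Ifngr2 and Mavs, chosen here after their values were seen, were lower in every MI heart than in any sham heart, each with a log2 fold change of -0.31. Ifngr2, a chain of the interferon gamma receptor, was 32.3 to 34.3 FPKM in sham and 24.9, 27.9 and 27.6 FPKM in MI hearts, and Mavs, the adaptor of the RNA sensors, was 13.6 to 15.3 FPKM in sham and 10.3, 12.8 and 11.4 FPKM in MI hearts. They were the only 2 of the 69 other pathway genes tested with every MI heart below every sham heart, against 9.0% of all genes tested. Every MI heart was above every sham heart for 21 of the 69, against 16.1%. Ifngr1, the other chain of the interferon gamma receptor, was 7.53 to 9.83 FPKM in sham and 19.7, 8.37 and 17.7 FPKM in MI hearts (log2 fold change 0.74, SE 0.27). The log2 fold changes of Ifngr2 and Mavs stayed negative after rescaling to TPM (-0.12 and -0.13), where the median of all genes was 0.42.

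Markers of leukocytes were high in MI replicates 1 and 3, as the members were. The 15 macrophage and monocyte markers had a summed level of 208 to 264 FPKM in sham and 1390, 251 and 1190 FPKM in MI replicates 1 to 3, that is 5.84-fold, 1.06-fold and 5.01-fold of the sham mean. In MI replicate 2, 8 of the 15 were above every sham heart and 7 within the sham range. The share above was 12 of 46 members and 20.4% of all genes tested. The folds of the sham mean in that heart ran from 0.811 (Aif1) to 2.78 (Ccr2, on 22 to 59 fragments in sham hearts), with a median of 1.11. All 11 of the markers that were tested were past both lines in the higher direction, against 17.8% of all genes tested, with a median log2 fold change of 1.55. None reached an adjusted p under 0.05 (limma). Without MI replicate 2 the median was 2.26 over the 10 then tested. The count past both lines rested on single MI hearts: it was 3 of 10 without MI replicate 1 (median 1.14) and 3 of 10 without MI replicate 3 (median 1.24), against 5.11% and 5.12% of all genes then tested. It was 10 of 10 without MI replicate 2 (34.7% of all genes) and 9 or 11 of 11 without 1 of the sham hearts (12.1% to 12.9%). Fcgr1, an Fc receptor, was under 1 FPKM in all 4 sham hearts and passed the filter only through the MI hearts, so it had to differ. The fold of the members was smaller in most cases: 4 of 46 (Oas3, Mx1, Irf8 and Isg15) exceeded the fold of the summed macrophage markers in MI replicate 1, and 2 (Oas3 and Mx1) in MI replicate 3. In bulk tissue more cells of a type and more RNA per cell cannot be told apart.

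Lymphocyte markers separated MI replicates 1 and 3. The 12 markers of T, NK and B cells, none of which passed the filter, summed to 1.54 to 2.03 FPKM in sham and 41.2, 1.96 and 10 FPKM in MI hearts. The 4 B cell markers among them summed to 0.731 to 1.03 FPKM in sham and 33.5, 0.6 and 5.27 FPKM in MI hearts. The 8 T and NK cell markers summed to 0.768 to 1.3 FPKM in sham and 7.77, 1.36 and 4.75 FPKM in MI hearts, so most of the gap between MI replicates 1 and 3 lay in the B cell markers. In MI replicate 2 the T cell markers Cd3e, Cd3g, Cd4 and Cd8a were each above every sham heart, on 14, 14, 36 and 29 fragments, at 3.52-fold, 13.5-fold, 1.4-fold and 6.66-fold of the sham mean, while Trac, also a T cell marker, was at 0.651-fold on 7 fragments. Cd79a, part of the B cell receptor, was 0.275 to 0.398 FPKM in sham and 16.9, 0.243 and 2.30 FPKM in MI hearts. Of the 46 members 43 were also higher in MI replicate 1 than in replicate 3, with the largest ratios for Oas3 (1.82), Oasl1 (1.79) and Tap1 (1.78), and the part of lymphocytes in this was not tested. The 6 neutrophil markers summed to 0.300 to 1.29 FPKM in sham and 13.8, 0.485 and 7.33 FPKM in MI hearts, with the defining marker Ly6g at 0 in all hearts. The 8 plasmacytoid dendritic cell markers summed to 20.5 to 23.8 FPKM in sham and 84.7, 20.4 and 77.1 FPKM in MI hearts. They include Bst2, Irf7 and Irf8, which are members here, and Bst2 made up most of the sum. Siglech, the defining marker, was at most 0.131 FPKM, on 0 to 7 fragments in sham hearts and 23, 2 and 13 in MI hearts (7.76-fold, 0.649-fold and 4.04-fold of the sham mean).

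Markers of resident cell types differed in direction. None of the 8 endothelial markers was past the lines, against 17.8% of all genes tested higher and 4.80% lower. Their median log2 fold change was 0.19 (0.31 without MI replicate 2) and their summed level 154 to 174 FPKM in sham and 192, 147 and 207 FPKM in MI hearts. All 8 fibroblast markers were past the lines in the higher direction, against 17.8% of all genes tested. Their median log2 fold change was 2.76, and 3.78 without MI replicate 2. They summed to 122 to 145 FPKM in sham and 2490, 232 and 1920 FPKM in MI hearts. MI replicate 2 was thus at 1.76-fold of the sham mean in fibroblast markers and at 1.02-fold in the median member. The 10 cardiomyocyte markers, which identify the tissue as myocardium, summed to 14000 to 15200 FPKM in sham and 9740, 13900 and 10500 FPKM in MI hearts. Past the lines in the lower direction were 5 of them, against 4.80% of all genes tested (median log2 fold change -0.52, and -0.76 without MI replicate 2). That count of 5 was 1 without MI replicate 1, where 179 of the 11097 genes tested were past the lines lower, and 1 without MI replicate 3 (253 of 11114). It was 6 without MI replicate 2 (959 of 11264) and 2 to 4 without 1 of the sham hearts (396 to 448 of 11327 to 11347). The count of the fibroblast markers was 7 or 8 of 8 without any 1 heart, against 5.11% to 34.7% of all genes then tested higher. The part of the cell makeup in the values of the members was not tested.

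**Figure D5:**
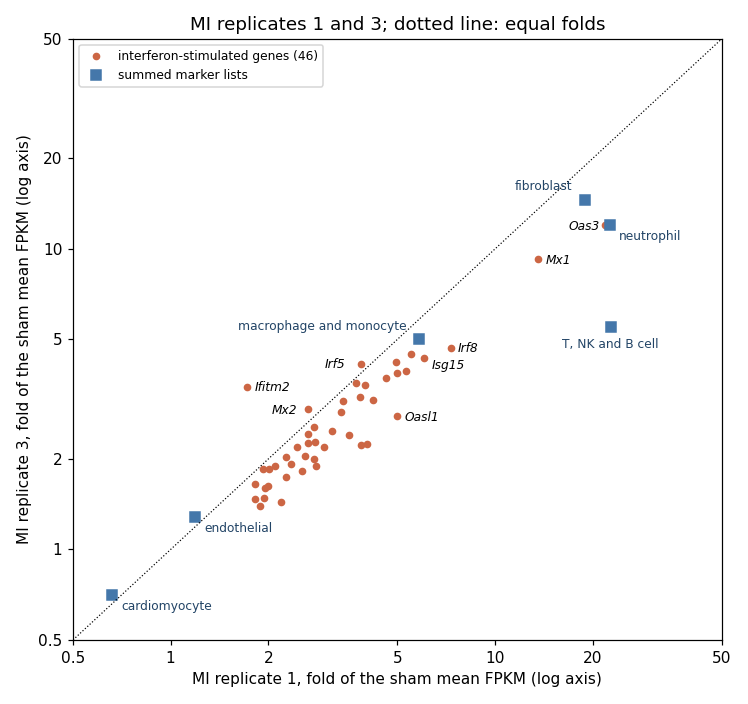
Fold of the sham mean FPKM in MI replicate 1 (x axis) and MI replicate 3 (y axis), both on log axes, for the 46 members (orange circles) and for summed marker lists (blue squares); the dotted line marks equal folds. Of the 46 members 43 lie below the line, and 42 lie left of the macrophage list, which is at 5.84-fold and 5.01-fold; Ifitm2 lies above the line.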

How the data were processed

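Total RNA of 7 hearts, 4 sham and 3 MI by the labels, was sequenced, 1 library per mouse. The authors deposited FPKM values for 56980 genes. The submitters' processing notes list CASAVA 1.8, HISAT2, SAMtools 1.3.1 and edgeR and the build mm10; the annotation, the counting program and the use of strand are not given in the sources used here. Symbols and positions came from GENCODE M21 on GRCm38, which held 52073 of the identifiers (91.4%), and promoter windows from RefSeq on GRCm38.p6. Whole fragments were recovered from the FPKM steps for 30479 of the 30504 genes above 0, within 0.05 of a whole number, by trying lengths from 20 to 120000 bases; on simulated data 98.8% of genes came back exact. For 5 of the 46 members the implied length equalled the annotated exon length. All 46 members were found, and 20 share exon bases with another gene.

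All tests used log2(FPKM + 1). A gene was kept if at least 3 hearts reached an FPKM of 1, which left 11431, and these were tested with limma 3.58.1 (lmFit, eBayes with trend) in R 4.3.3, two-sided, MI against sham without covariates, with p-values adjusted by Benjamini-Hochberg over all genes tested. A second, descriptive criterion was an unadjusted p under 0.05 with an absolute log2 fold change over 0.5. A fold of the sham mean is a ratio of FPKM; a log2 fold change is a difference of log2(FPKM + 1), which understates the change of low genes. On simulated data with the pooled spread of 11431 genes, limma called 72 of 100 genes changed by a log2 fold of 1 and 93 of 100 changed by 2. The simulation drew each gene independently, with the same spread in both groups, whereas here MI replicate 2 stood apart across genes. Those counts therefore do not give the share of changed members that the test could call. The SD over hearts covers counting error and the difference between mice.

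The members, the pathway and marker lists and the tests were chosen with earlier results of these data known, so counts over a list are descriptions beside those over all genes. All members are named by role; of the pathway lists, Ifnb1, Ifng and the 6 tested genes with the largest absolute log2 fold change and no overlap between groups, while 1 further gene under this rule is not reported here. The alternatives changed the pseudocount to 0.1, dropped the low-value filter or set it on the mean, and used TPM, quantile and median log-ratio scaling, limma without trend, with sample weights or as voom on the recovered fragments, a block for replicate number, and each heart left out. Same-numbered sham and MI hearts did not deviate together (Pearson r 0.074, -0.016 and -0.08), and the labels give no pairing.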

Additional observations from a re-analysis of the deposited data

Results flagged for a closer look

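Ifitm2 was singled out by the distance of 1 sham heart from the others. Sham replicate 3 was at 31.6 FPKM and the other sham hearts at 65.4 to 69.8 FPKM, a gap of 0.885 of the whole range of the group, above Dixon's critical value for 4 samples. Of the 46 members tested in this way it was the only one, where chance would flag about 2.3. The log2 fold change of Ifitm2 was 1.02 over all hearts and 0.75 without that heart. The cause was not tested.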

How the results depend on the processing

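The log2 fold change of each of the 37 members stayed positive under all 17 alternatives, as far as the member was tested in them. No member reached an adjusted p under 0.05 (limma) in any of them except with sample weights and without MI replicate 2, where all 37 did. These 37 include Irf7 and Psmb9, which passed the filter only with the help of MI replicates 1 and 3. With sample weights 9952 genes did so in all, and MI replicate 3 then carried a weight of 436.747 against 0.091 and 0.022 for MI replicates 1 and 2, so that the estimate is close to that of 1 MI heart. The number of genes at an adjusted p under 0.05, 3 over all hearts, was 0 with a filter on the mean, 14 with median log-ratio scaling, 21 with no filter, 6 with a pseudocount of 0.1 and 15 with quantile normalization. Leaving out 1 heart gave 0 to 8071 such genes (8071 without MI replicate 2), 0 to 37 members at an adjusted p under 0.05 (limma) and a median log2 fold change of 0.44 to 0.98. It gave 2 to 37 members past both lines, against 5.11% to 34.7% of all genes then tested higher. The number of members past both lines, 27 over all hearts (17.8% of all genes tested higher), was 15 with median log-ratio scaling (10.9%) and 11 with quantile normalization (8.81%). Over the other alternatives the median log2 fold change was 0.38 to 0.94. The replicate block, in a design whose numbers were not found to pair the hearts, gave 0 genes and 0 members at an adjusted p under 0.05 (limma), 1 heart having no partner. The number of MI hearts, 3, limits the precision, and Oas3 and Mx1 rest on few fragments in the sham hearts. The causes of these shifts were not tested.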
